A study of Homo sapiens with 18 samples.

Results

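Eph receptors are the largest family of receptor tyrosine kinases, and ephrins are their membrane-bound ligands, which meet them on neighbouring cells. The transcripts described here are those of 10 of these genes, the receptors EPHA1, EPHA2, EPHA4, EPHB2, EPHB3 and EPHB4 and the ligands EFNA1, EFNA5, EFNB1 and EFNB2. They were taken by symbol from a table of 43236 gene symbols, and all 10 were among the 16291 genes with enough counts to be tested. The cells were of NCI-H1693, a line established from a human non-small cell lung cancer. It is deficient in SMARCA4, which with SMARCA2 makes up the pair of ATPases that can drive the SWI/SNF chromatin remodeller. PRT3789 is a degrader selective for SMARCA2. Cells received 50 nM PRT3789 or DMSO, the solvent alone, for 6, 48 or 72 h, with 3 libraries in each of the 6 groups. All groups share the SMARCA4 deficiency, and 1 line was used, so the values describe this line.

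A-type ephrins are held in the membrane by a lipid anchor and mostly bind EphA receptors. B-type ephrins cross the membrane and mostly bind EphB receptors, while EPHA4 also binds B-type ephrins. Contact sends a signal into the receptor-bearing cell, through kinase activity and regulators of small GTPases, and one back into the ephrin-bearing cell, and the outcome is often repulsion or a change of adhesion. In epithelia and carcinomas EPHA2 and EFNA1 are the best studied pair: EFNA1 binding leads to phosphorylation and degradation of EPHA2, and unbound EPHA2 has been linked to migration.

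The starts of 5 genes that the results below turn on are printed here, 3 whose transcripts were lower with PRT3789 (EPHA2, EPHB2 and EFNA1) and 2 whose transcripts were higher (EPHA1 and EFNA5). They are RefSeq sequences on GRCh38.p14, each running from 250 bases before to 50 bases after the annotated start, 5′ to 3′ on the strand of the gene. RefSeq lists more than 1 start for EPHB2 and for EPHA4, and the first listed was used. Capitals, found in EPHA2 only, mark a match to GGAATG or its reverse complement, the core of the motif bound by TEAD factors.
EPHA2, chr1:16156020-16156319, minus strand: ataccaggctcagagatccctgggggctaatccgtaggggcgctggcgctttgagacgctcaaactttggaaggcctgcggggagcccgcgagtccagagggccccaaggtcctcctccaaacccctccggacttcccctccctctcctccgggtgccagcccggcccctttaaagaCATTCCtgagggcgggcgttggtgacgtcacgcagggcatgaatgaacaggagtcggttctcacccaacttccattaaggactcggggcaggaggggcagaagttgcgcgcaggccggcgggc
EPHB2, chr1:22710588-22710887, plus strand: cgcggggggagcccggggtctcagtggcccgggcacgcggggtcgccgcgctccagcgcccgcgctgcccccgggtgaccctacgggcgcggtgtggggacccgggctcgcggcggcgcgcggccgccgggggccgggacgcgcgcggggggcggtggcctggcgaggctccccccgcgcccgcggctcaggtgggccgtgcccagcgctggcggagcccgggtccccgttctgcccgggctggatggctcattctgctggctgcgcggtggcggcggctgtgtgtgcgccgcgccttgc
EFNA1, chr1:155127626-155127925, plus strand: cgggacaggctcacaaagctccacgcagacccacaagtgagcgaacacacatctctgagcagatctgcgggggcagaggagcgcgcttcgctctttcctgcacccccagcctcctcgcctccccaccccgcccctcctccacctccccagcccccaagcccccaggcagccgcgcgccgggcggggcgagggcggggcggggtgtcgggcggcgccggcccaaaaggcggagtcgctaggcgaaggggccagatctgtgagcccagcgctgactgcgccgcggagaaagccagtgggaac
EPHA1, chr7:143408807-143409106, minus strand: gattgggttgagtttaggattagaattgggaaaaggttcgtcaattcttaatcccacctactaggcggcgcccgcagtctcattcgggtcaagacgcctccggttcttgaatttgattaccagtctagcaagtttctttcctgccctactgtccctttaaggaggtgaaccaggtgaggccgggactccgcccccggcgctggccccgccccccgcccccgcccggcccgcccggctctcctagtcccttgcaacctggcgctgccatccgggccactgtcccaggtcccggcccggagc
EFNA5, chr5:107670888-107671187, minus strand: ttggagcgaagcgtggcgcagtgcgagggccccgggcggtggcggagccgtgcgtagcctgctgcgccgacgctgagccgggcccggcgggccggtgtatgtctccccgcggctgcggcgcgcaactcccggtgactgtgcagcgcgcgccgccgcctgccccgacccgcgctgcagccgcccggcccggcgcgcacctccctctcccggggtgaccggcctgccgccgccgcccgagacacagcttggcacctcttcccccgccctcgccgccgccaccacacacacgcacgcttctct

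Such windows were found for all 10 genes. The letters TGANTCA, bound by AP-1 factors and searched on both strands, occurred in 0 of the 10 windows, against 7.76% of 27305 windows of the same length over all genes. GGAATG, also searched on both strands, occurred in 1 of the 10, against 14.0% of all windows. The EPHA2 match, CATTCC, begins 73 bases before the start (position -73). GC content ran from 43.0% in EPHA4 to 83.0% in EPHB2, with a median of 70.3% over the 10 genes and 58.3% over all windows. These are counts of letters only, and distal sites were not searched.

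Library totals ran from 23154484 to 31094797 counts. All 7 epithelial markers reached a mean of 1 CPM (a transcript's count scaled by edgeR to a common library size) in every group. Blood cell markers summed to 1.01 to 3.19 CPM, with HBB at 0 throughout. The summed epithelial markers, mostly keratins, themselves moved with treatment: the mean at 6 h was 8810 CPM with PRT3789 and 9520 CPM with DMSO. At 48 h it was 4800 CPM with PRT3789 and 11100 CPM with DMSO, and at 72 h it was 4250 CPM with PRT3789 and 10100 CPM with DMSO. The 7 markers did not fall alike. At 48 h 6 of them were called lower, and at 72 h 4 were, from CDH1 (-0.99 on the log2 scale) to KRT80 (-5.0). EPCAM (-0.067), KRT7 (-0.0013) and KRT19 (0.068) were not called at 72 h. The 5 endothelial markers summed to 0.487 CPM with PRT3789 and 2.78 CPM with DMSO at 48 h, and to 0.552 CPM with PRT3789 and 3.47 CPM with DMSO at 72 h. Only 2 of them had enough counts to be tested. CDH5 was called lower at both times, and CLDN5 (0.019 and -0.49 on the log2 scale) was called at neither. The 6 fibroblast markers summed to 87.7 CPM with PRT3789 and 117 CPM with DMSO at 48 h, and to 106 CPM with PRT3789 and 125 CPM with DMSO at 72 h. They did not move together. PDGFRB (-2.54 and -2.69 on the log2 scale) and LUM (-0.55 and -0.27) were called lower at both times. PDGFRA was called higher at 48 h (1.21, edgeR adjusted p = 0.0122). The part of these markers in the Eph and ephrin values was not tested. SMARCA2 transcript, which does not report the degradation of its protein, averaged 40.5 CPM with PRT3789 and 39.4 CPM with DMSO at 6 h, and 34.8 CPM with PRT3789 and 47.2 CPM with DMSO at 72 h, when it was called lower (log2 fold change -0.44, edgeR adjusted p = 0.00108). In these bulk samples, fewer cells with a transcript and less of it per cell cannot be told apart.

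Between PRT3789 and DMSO, 4 of the 10 genes were called at 6 h, 7 at 48 h and 6 at 72 h. Called means an adjusted p under 0.05 in edgeR's two-sided quasi-likelihood test, with the Benjamini-Hochberg adjustment made over every tested gene. Of all tested genes, 4.33% were called at 6 h (1.28% higher, 3.04% lower), 42.1% at 48 h (21.2% higher, 20.9% lower) and 43.4% at 72 h (21.3% higher, 22% lower). The shares called among these 10 genes were higher as numbers at each time. The genes are few and were chosen with earlier results of these data known, and the difference was not tested. The calls went both ways. EPHA1 was higher and EPHA2, EPHB3 and EFNA1 were lower at 6 h. At 48 h EPHA1, EPHA4 and EFNA5 were higher, and EPHA2, EPHB2, EPHB3 and EFNA1 were lower. At 72 h the calls were as at 48 h without EPHB3. The median size of the log2 fold change, without its sign, was 0.382, 0.986 and 0.968 over the 10 genes at 6, 48 and 72 h, and 0.129, 0.317 and 0.319 over all tested genes. The CPM of the PRT3789 libraries lay apart from those of the DMSO libraries for 4 of the 10 genes at 6 h, 7 at 48 h and 8 at 72 h. The same held for 14.7% of all tested genes at 6 h, 56.2% at 48 h and 61.9% at 72 h. The signed medians were near 0 in both, with 0.03, -0.09 and -0.08 over the 10 genes and -0.01, 0.01 and 0.01 over all tested genes at 6, 48 and 72 h.

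**Figure D1:**
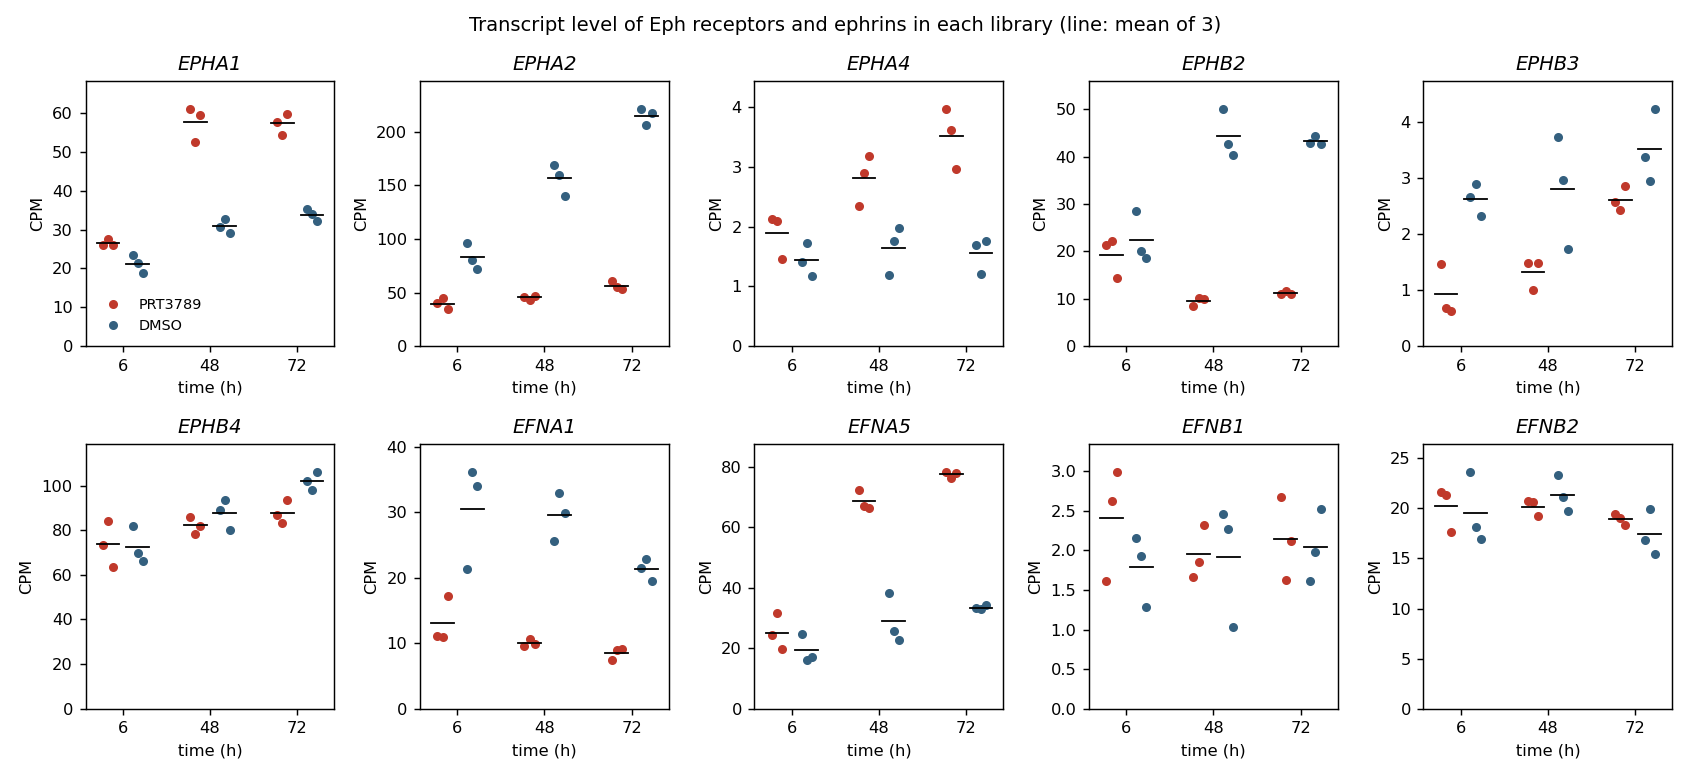
CPM of each of the 10 transcripts in each library (points) by time, PRT3789 in red left of DMSO in blue, with a line at the mean of 3 libraries. EPHA2 stayed at or under 60.4 CPM in every PRT3789 library while the DMSO libraries reached 221 CPM at 72 h, and EFNA5 showed the opposite order at 48 and 72 h.

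**Figure D2:**
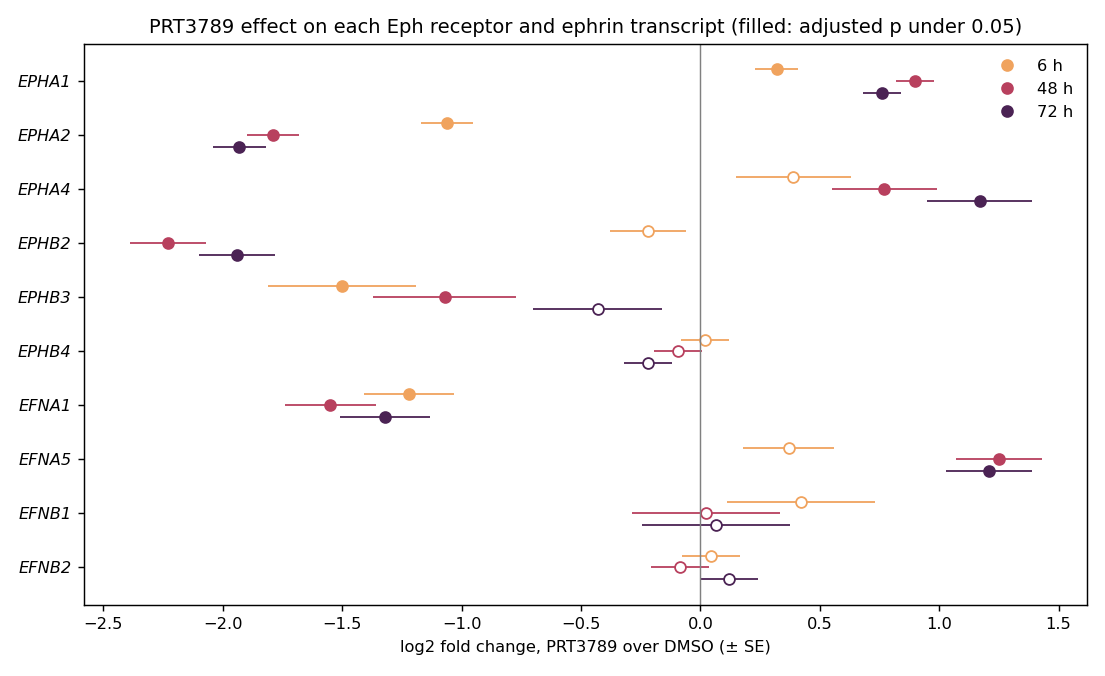
Log2 fold change of PRT3789 over DMSO at 6, 48 and 72 h for each transcript, with bars of 1 standard error and filled points where the adjusted p was under 0.05. EPHA2 and EFNA1 lay left of 0 at all 3 times, and EPHB2 at -0.22 at 6 h, where it was not called, and at -2.23 and -1.94 later.

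The libraries at 6 h differed more among themselves than the later ones. Over 11059 genes, the median SD of log2 CPM was 0.149 with PRT3789 and 0.167 with DMSO at 6 h, against 0.0644 to 0.119 in the later groups. Since 1 spread is estimated over the 3 times, p-values at 6 h may be too low. Fitted on the 6 h libraries alone, the test called 0.976% of genes and 1 of the 10, EPHA2.

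EPHA2, a receptor abundant in many carcinomas, had the highest level per length of the receptors in DMSO at each time, as given further on. At 6 h it stood at 40.0, 44.6 and 34.3 CPM with PRT3789, against 96.6, 80.1 and 71.7 CPM with DMSO. At 48 h it stood at 46.1, 43.1 and 46.8 CPM with PRT3789, against 169, 160 and 140 CPM with DMSO. At 72 h it stood at 60.4, 54.9 and 53.7 CPM with PRT3789, against 221, 206 and 218 CPM with DMSO. Every PRT3789 library lay below every DMSO library, also across times: the highest with PRT3789 was at 72 h and the lowest with DMSO at 6 h. The level was 2.09-fold lower at 6 h (log2 fold change -1.06 ± 0.11 SE, edgeR adjusted p = 6.72e-06), 3.45-fold lower at 48 h (-1.79 ± 0.11, adjusted p = 6.16e-10) and 3.82-fold lower at 72 h (-1.93 ± 0.11, adjusted p = 1.85e-10). With the 6 h libraries fitted alone the call at 6 h remained, with an adjusted p of 0.0278.

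The widening gap went with a rise in the DMSO cells. EPHA2 was 0.92 log2 units higher in DMSO at 48 h than at 6 h (edgeR adjusted p = 4.8e-06), and the change of the PRT3789 effect between these times, tested as an interaction, was -0.72 (adjusted p = 0.0023). The mean with PRT3789 was 39.6 ± 5.17, 45.4 ± 1.96 and 56.3 ± 3.6 CPM at 6, 48 and 72 h (SD, n = 3 each). The mean with DMSO was 82.8 ± 12.6, 157 ± 14.7 and 215 ± 8.02 CPM at these times. Ordered by mean, the libraries of neighbouring groups overlapped only between PRT3789 at 48 h and PRT3789 at 6 h.

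EPHA2-AS1, an antisense RNA that starts at chromosome 1 position 16155215, inside EPHA2 (16124337 to 16156069, GRCh38.p14), was lower as well. It was named after its values were seen. It averaged 0.563 ± 0.145 CPM with PRT3789 and 2.08 ± 0.215 CPM with DMSO at 48 h, and 0.483 ± 0.0398 CPM with PRT3789 and 2.85 ± 0.161 CPM with DMSO at 72 h (SD, n = 3 each). The fold changes were -0.56 at 6 h (edgeR adjusted p = 0.108), -1.87 at 48 h (1.09e-06) and -2.55 at 72 h (1.82e-08) on the log2 scale. The libraries were stranded, so reads of the pair can be told apart as far as the strand setting of the counting was right.

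EPHB2 (chromosome 1, 22710838 to 22921500), a receptor known for cell sorting in the intestinal crypt, was not called at 6 h and was strongly lower at 48 and 72 h. The 6 h libraries had 21.3, 22.2 and 14.4 CPM with PRT3789, against 28.5, 20.1 and 18.6 CPM with DMSO, and the groups overlapped. The 48 h libraries had 8.43, 10.2 and 9.88 CPM with PRT3789, against 50.0, 42.8 and 40.3 CPM with DMSO. The 72 h libraries had 11.1, 11.7 and 11.0 CPM with PRT3789, against 43.0, 44.4 and 42.7 CPM with DMSO. At neither later time did the groups overlap. The level was 4.68-fold lower at 48 h (log2 fold change -2.23 ± 0.16 SE, edgeR adjusted p = 7.26e-09) and 3.85-fold lower at 72 h (-1.94 ± 0.16, adjusted p = 2.6e-08), against 1.16-fold at 6 h (-0.22 ± 0.16, adjusted p = 0.613). The effect differed between 6 and 48 h by -2.01 (interaction, adjusted p = 5.35e-06). Both sides moved: the DMSO mean was 44.4 ± 5.06 CPM at 48 h and 22.4 ± 5.33 CPM at 6 h (0.98 on the log2 scale, adjusted p = 0.000112), and the PRT3789 mean was 9.49 ± 0.925 CPM at 48 h and 19.3 ± 4.28 CPM at 6 h.

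EPHB3 (chromosome 3, 184561785 to 184582408), a related receptor of the crypt, was at a low level, from 0.627 to 4.22 CPM. Levels at 6 h were 1.47, 0.672 and 0.627 CPM with PRT3789, against 2.65, 2.89 and 2.32 CPM with DMSO. Levels at 48 h were 1.49, 0.994 and 1.49 CPM with PRT3789, against 3.73, 2.97 and 1.73 CPM with DMSO. Levels at 72 h were 2.57, 2.42 and 2.85 CPM with PRT3789, against 3.38, 2.95 and 4.22 CPM with DMSO. The groups lay apart at each time, while the log2 fold change was -1.50 ± 0.31 at 6 h (edgeR adjusted p = 0.00782), -1.07 ± 0.30 at 48 h (0.00749) and -0.43 ± 0.27 at 72 h (0.22). The call at 6 h was lost with the 6 h libraries fitted alone (adjusted p = 0.145), and EPHB3 was called at 72 h with that time fitted alone (adjusted p = 0.0351), as were 58.6% of all genes.

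EPHA1, an epithelial receptor that binds EFNA1, was higher. EPHA1 had 25.9, 27.5 and 25.9 CPM with PRT3789, against 23.4, 21.4 and 18.7 CPM with DMSO at 6 h. By 48 h the values were 60.9, 52.5 and 59.5 CPM with PRT3789, against 30.7, 32.7 and 29.0 CPM with DMSO. Those of 72 h were 57.7, 54.4 and 59.8 CPM with PRT3789, against 35.2, 33.9 and 32.2 CPM with DMSO. The groups did not overlap at any time, and the gap at 6 h was the narrowest. PRT3789 at 48 h and at 72 h, the highest groups, overlapped each other. The log2 fold change was 0.90 ± 0.08 at 48 h (edgeR adjusted p = 1.17e-07) and 0.76 ± 0.08 at 72 h (7.47e-07), and the effect differed by 0.58 between 6 and 48 h (interaction, adjusted p = 0.00191).

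The 6 h call of EPHA1 was marginal, at 0.32 ± 0.09 (adjusted p = 0.0423). It was lost with the 6 h libraries fitted alone (adjusted p = 0.407) and on leaving out any 1 of 14 of the 18 libraries (adjusted p from 0.0516 to 0.183). EPHA1-AS1, an antisense RNA that overlaps the start of EPHA1 on chromosome 7 (it begins at 143407813, and EPHA1 spans 143391129 to 143408856), was also higher, at 1.67 on the log2 scale at 48 h (adjusted p = 0.00247) and 2.34 at 72 h (0.000104). Its levels were 1.49 ± 0.201 CPM with PRT3789 and 0.463 ± 0.123 CPM with DMSO at 48 h, and it too was named after its values were seen.

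EPHA4 (chromosome 2, 221418027 to 221574202), a receptor best known in axon guidance, was at a low level, from 1.18 to 3.96 CPM. The values of 48 h were 2.35, 2.90 and 3.18 CPM with PRT3789, against 1.19, 1.76 and 1.98 CPM with DMSO. The values of 72 h were 3.96, 3.61 and 2.96 CPM with PRT3789, against 1.69, 1.20 and 1.76 CPM with DMSO. The groups lay apart at both times and overlapped at 6 h, where PRT3789 gave 1.46 to 2.13 CPM and DMSO 1.18 to 1.72 CPM. The log2 fold change was 0.39 ± 0.24 at 6 h (edgeR adjusted p = 0.504), 0.77 ± 0.22 at 48 h (0.0101) and 1.17 ± 0.22 at 72 h (0.000309). The 48 h call was lost without DMSO 48 h replicate 1 (adjusted p = 0.0524) or without PRT3789 48 h replicate 3 (0.0552).

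EPHB4 (chromosome 7, 100802565 to 100827523), the EFNB2 receptor of venous endothelium, was expressed at 63.5 to 106 CPM. It was not called between PRT3789 and DMSO at any time. In the 72 h libraries it reached 86.9, 83.2 and 93.6 CPM with PRT3789, against 102, 98.2 and 106 CPM with DMSO, and these groups did not overlap. The log2 fold change there was -0.22 ± 0.10 SE (edgeR adjusted p = 0.08). At 6 h the means were 73.6 ± 10.2 CPM with PRT3789 and 72.6 ± 8.3 CPM with DMSO, and at 48 h they were 82.1 ± 3.83 CPM with PRT3789 and 87.6 ± 6.75 CPM with DMSO (SD, n = 3 each). It was called at 72 h with that time fitted alone (adjusted p = 0.00113), with a trend over transcript length removed from each library (0.0171) and on leaving out 1 of 3 of the 6 h libraries: DMSO replicate 1 (0.0385), PRT3789 replicate 2 (0.0497) or PRT3789 replicate 3 (0.045).

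EFNA1, the ligand of EPHA2 and EPHA1, was lower at each time. After 6 h there were 11.1, 10.9 and 17.2 CPM with PRT3789, against 21.3, 36.1 and 34.0 CPM with DMSO. After 48 h there were 9.60, 10.6 and 9.95 CPM with PRT3789, against 25.6, 32.9 and 29.9 CPM with DMSO. After 72 h there were 7.43, 9.02 and 9.11 CPM with PRT3789, against 21.5, 22.9 and 19.5 CPM with DMSO. No library of one treatment reached the range of the other. The level was 2.33-fold lower at 6 h (log2 fold change -1.22 ± 0.19 SE, edgeR adjusted p = 0.00053), 2.93-fold lower at 48 h (-1.55 ± 0.19, adjusted p = 3.75e-06) and 2.5-fold lower at 72 h (-1.32 ± 0.19, adjusted p = 2.26e-05). The 6 h call was lost with that time fitted alone (adjusted p = 0.114). The libraries farthest from their groups at 6 h were DMSO replicate 1, the low one of its group, and PRT3789 replicate 3, the high one.

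EFNA1 lies at 155127876 to 155134899 on chromosome 1. Its neighbours EFNA4 (155063740 to 155069553) and EFNA3 (155078837 to 155087538) were not called between PRT3789 and DMSO at any time. The EFNA4 libraries with PRT3789 still lay below those with DMSO at 48 and 72 h (-0.14 and -0.15 on the log2 scale). In DMSO, EFNA4 was called lower at 48 h than at 6 h (-0.47, edgeR adjusted p = 0.00241). EFNA4 averaged 14.3 ± 0.529 CPM with PRT3789 and 15.7 ± 0.572 CPM with DMSO at 48 h (SD, n = 3 each).

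EFNA5 (chromosome 5, 107376894 to 107670937), a ligand of several EphA receptors that also binds EPHB2, went the other way. At 6 h it stood at 24.3, 31.6 and 19.7 CPM with PRT3789, against 24.9, 16.2 and 17.2 CPM with DMSO, and the groups overlapped. At 48 h it stood at 72.5, 67.2 and 66.4 CPM with PRT3789, against 38.2, 25.9 and 22.6 CPM with DMSO. At 72 h it stood at 78.3, 76.4 and 78.1 CPM with PRT3789, against 33.3, 33.0 and 34.2 CPM with DMSO. At both later times the groups lay far apart, and PRT3789 at 72 h lay above PRT3789 at 48 h without overlap. The level was 2.38-fold higher at 48 h (log2 fold change 1.25 ± 0.18 SE, edgeR adjusted p = 2.99e-05) and 2.32-fold higher at 72 h (1.21 ± 0.18, adjusted p = 3.4e-05), against 1.29-fold at 6 h (0.37 ± 0.19, adjusted p = 0.392). The effect differed between 6 and 48 h by 0.88 (interaction, adjusted p = 0.0257). That interaction was lost on leaving out any 1 of 6 libraries (DMSO 6 h replicate 1, PRT3789 6 h replicates 1 and 3, DMSO 48 h replicates 2 and 3, PRT3789 48 h replicate 1), with adjusted p from 0.0548 to 0.096.

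The B-type ephrins were not called at any time. EFNB2 (chromosome 13, 106489745 to 106535662), the arterial ligand of EPHB4, averaged 20.2 ± 2.21 CPM with PRT3789 and 19.5 ± 3.54 CPM with DMSO at 6 h (SD, n = 3 each). The means were 20.1 ± 0.849 CPM with PRT3789 and 21.3 ± 1.83 CPM with DMSO at 48 h, and 18.9 ± 0.57 CPM with PRT3789 and 17.4 ± 2.3 CPM with DMSO at 72 h. Its log2 fold changes were 0.045, -0.085 and 0.12 at 6, 48 and 72 h. EFNB1 (chromosome X, 68829021 to 68842160), a ligand of EphB receptors, averaged between 1.79 and 2.41 CPM in the 6 groups, and its libraries overlapped at every time. Its log2 fold change at 6 h was 0.42 with a standard error of 0.31 (edgeR adjusted p = 0.628).

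The interaction test called 4 of the 10 genes between 6 and 48 h, EPHA1 and EFNA5 upwards and EPHA2 and EPHB2 downwards, against 19.2% of all tested genes (8.83% upwards and 10.4% downwards). Between 48 and 72 h it called 0 of the 10 and 0 of all genes (edgeR). At an unadjusted p under 0.05, 0 of the 10 and 1476 of all genes passed there, and DESeq2 called 103 genes and limma-voom 0.

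Without the compound, 5 of the 10 transcripts rose in culture. In DMSO at 48 h against 6 h, EPHA1 (0.54 on the log2 scale, adjusted p = 0.000121), EPHA2, EPHB2, EPHB4 (0.27, 0.0384) and EFNA5 (0.57, 0.0251) were called higher by edgeR and none lower, while 37.2% of all tested genes were called, 17.1% higher. EPHA1 and EFNA5 were thus higher at 48 h than at 6 h in DMSO as well as higher with PRT3789 than with DMSO at 48 h. The EFNA5 rise in DMSO was lost without DMSO 48 h replicate 1 (adjusted p = 0.179), DMSO 6 h replicate 2 (0.102) or DMSO 6 h replicate 3 (0.0918) and with no filter on low counts (0.0703), and the EPHB4 rise without any 1 of 4 DMSO libraries, 48 h replicates 1 and 2 and 6 h replicates 2 and 3 (0.0951 to 0.127). Between 48 and 72 h in DMSO, edgeR called 0 of the 10 and 0.54% of all genes. At an unadjusted p under 0.05, 4 of the 10 and 3221 of the 16291 tested genes passed. DESeq2 called 554 genes in that comparison and limma-voom 122, and both called EPHA2 (0.45, adjusted p = 0.00547 with DESeq2). In edgeR, EPHA2 had 0.46 with an adjusted p of 0.0593, which passed 0.05 without DMSO 6 h replicate 1 (0.0141), DMSO 6 h replicate 3 (0.0385), PRT3789 6 h replicate 2 (0.0374) or PRT3789 6 h replicate 3 (0.0356).

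Expressed per length of the canonical transcript, the receptors and ligands present changed in proportion. EPHA2 made up 21.7% ± 0.352 of the summed CPM per kb of 14 receptors with PRT3789 and 51.9% ± 1.23 with DMSO at 48 h, and 24.6% ± 1.69 with PRT3789 and 56.5% ± 0.474 with DMSO at 72 h (SD, n = 3 each). EPHA1 made up 32.8% ± 0.968 with PRT3789 and 12.2% ± 0.58 with DMSO at 48 h. EPHB4 held the largest share of the receptors with PRT3789, 35.6% at 48 h, where EPHA2 held it with DMSO. The summed receptor level was 53.1 ± 2.63 CPM per kb with PRT3789 and 76.5 ± 6.0 CPM per kb with DMSO at 48 h, and 58.1 ± 2.16 CPM per kb with PRT3789 and 96.4 ± 2.92 CPM per kb with DMSO at 72 h. No test was run on shares, and the ranges of the libraries with PRT3789 and DMSO did not overlap for these shares and sums.

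Among 8 ephrins, EFNA1 made up 15.8% ± 0.597 of the summed CPM per kb with PRT3789 and 40.1% ± 4.6 with DMSO at 48 h, and 14.3% ± 1.53 with PRT3789 and 34.2% ± 0.837 with DMSO at 72 h (SD, n = 3 each). EFNA5 made up 31.3% ± 1.65 with PRT3789 and 11.4% ± 3.19 with DMSO at 48 h, and 37.6% ± 0.476 with PRT3789 and 15.6% ± 1.19 with DMSO at 72 h. EFNA5 was the leading ligand by this measure with PRT3789 at 48 and 72 h, and EFNA1 with DMSO. The summed ephrin level was 40.2 ± 3.38 CPM per kb with PRT3789 and 50.4 ± 6.05 CPM per kb with DMSO at 6 h, and 40.9 ± 1.06 CPM per kb with PRT3789 and 47.3 ± 1.66 CPM per kb with DMSO at 48 h, where the libraries lay apart. It was 38.4 ± 0.31 CPM per kb with PRT3789 and 40.1 ± 2.28 CPM per kb with DMSO at 72 h. Shares depend on the length chosen, and merged exons were tried in place of the canonical transcript after the data were seen. EPHA2 was then at 27.3% with PRT3789 and 59.0% with DMSO at 48 h. With PRT3789 at 72 h EPHB4 and EPHA2 were level, at 30.8% and 30.7%, and with DMSO EFNA4 led over EFNA1 at 6 h, with 39.1% over 31.5%, and at 72 h, with 30.4% over 27.7%. The summed ephrin level at 72 h was then 35.6 CPM per kb with PRT3789 and 35.5 CPM per kb with DMSO.

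**Figure D3:**
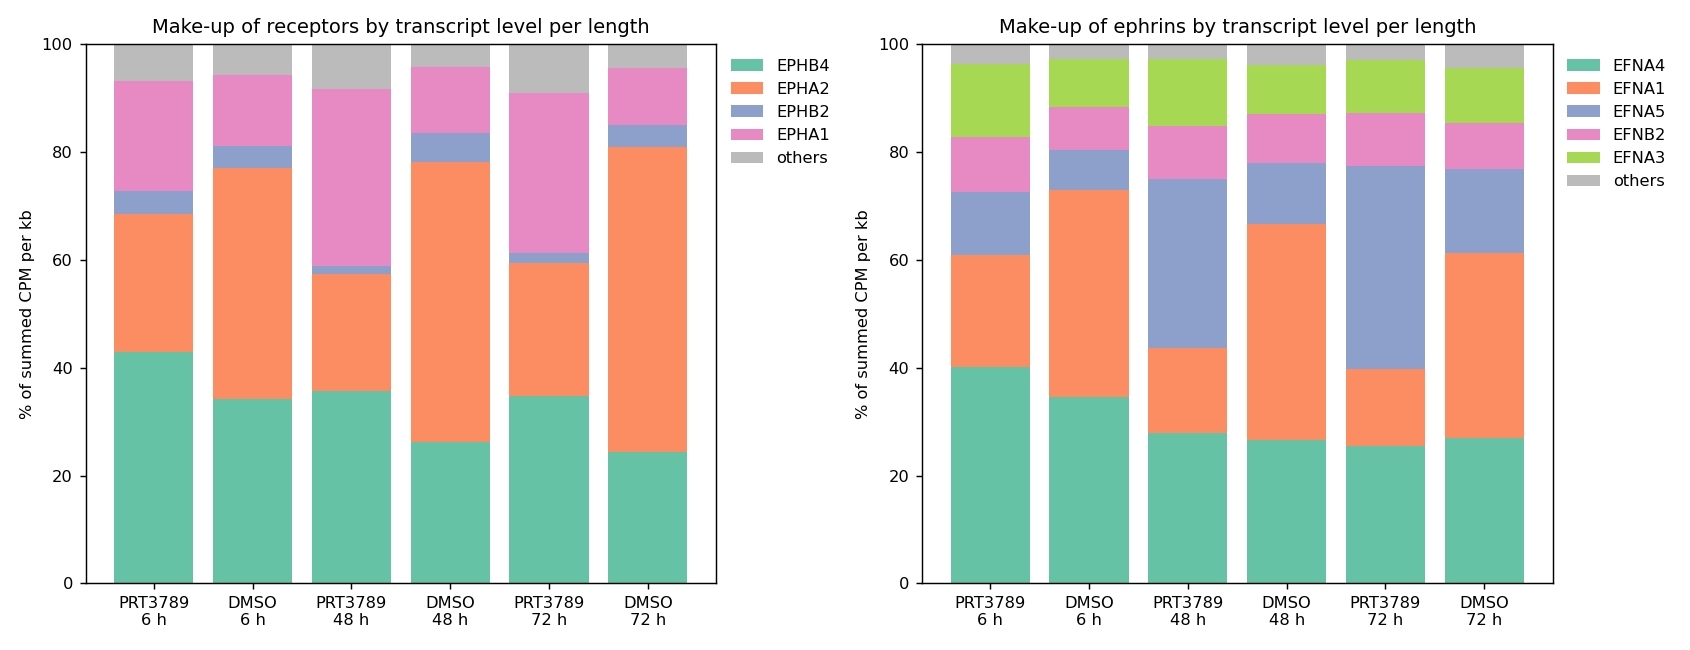
Mean share of each gene in the summed CPM per kb of the 14 receptors (left panel) and 8 ephrins (right panel), stacked to 100%, with PRT3789 left of DMSO at 6, 48 and 72 h and genes with small shares in grey. EPHA2 takes 24.6% with PRT3789 and 56.5% with DMSO at 72 h, and EFNA5 takes 37.6% with PRT3789 and 15.6% with DMSO.

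Of the 12 other family genes, EPHA8 and EFNA2 had too few counts to test. None of the other 10 was called at 6 h (edgeR). At 48 h EPHA3, EPHA5, EPHA6 and EPHA10 were higher and EFNB3 lower, and at 72 h EPHA3, EPHA6 and EPHA10 were higher and EFNB3 lower. That is 5 of 10 genes at 48 h and 4 of 10 at 72 h, near the 42.1% and 43.4% of all tested genes. EFNB3, a B-type ephrin of the nervous system, averaged 1.40 ± 0.337 CPM with PRT3789 and 3.92 ± 0.516 CPM with DMSO at 48 h, a log2 fold change of -1.50 ± 0.20 (adjusted p = 8.67e-06). EPHA10, a receptor without kinase activity, averaged 8.71 ± 0.343 CPM with PRT3789 and 4.89 ± 0.91 CPM with DMSO at 48 h (0.83 ± 0.14, adjusted p = 0.000135). EPHA3 and EPHA6 stood at or under 1.42 CPM in every library, so their changes rest on few counts.

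Of 62 genes named for their part in Eph and ephrin signalling, 56 were tested. They were chosen with earlier results of these data known. At 6 h 0 were higher and 2 lower, or 3.57% called. At 48 h 15 were higher and 18 lower, or 58.9%, and at 72 h 13 were higher and 18 lower, or 55.4%. Over all tested genes the share called was 4.33% at 6 h, 42.1% at 48 h and 43.4% at 72 h. Their median log2 fold change was -0.08 at 48 h and -0.06 at 72 h. SRC, the kinase that acts below many Eph receptors, averaged 16.0 ± 1.32 CPM with PRT3789 and 28.4 ± 2.92 CPM with DMSO at 6 h (log2 fold change -0.83 ± 0.09 SE, edgeR adjusted p = 1.73e-05). LYN, a kinase of the same family, was the other call at 6 h, at -0.29 (adjusted p = 0.033). Both stayed lower at 48 h (-0.63 and -0.52) and 72 h (-0.48 and -0.54).

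Among the 56 tested signalling genes, 20 were small GTPases, their regulators and effectors, and a regulator of G proteins. Of these 20, 6 were higher and 8 lower at 48 h, while 3 were higher and 9 lower at 72 h. Of all tested genes, 21.2% were higher and 20.9% lower at 48 h, and 21.3% higher and 22% lower at 72 h. VAV2, an exchange factor for small GTPases that Eph receptors recruit, had a log2 fold change of -1.17 ± 0.12 at 48 h (edgeR adjusted p = 2.84e-07) and -1.37 at 72 h. KALRN, another exchange factor, which acts below EPHB2 in neurons, stood at 0.569, 0.663 and 0.133 CPM with PRT3789, against 3.09, 3.99 and 4.63 CPM with DMSO at 48 h (-3.13 ± 0.32, adjusted p = 5.2e-07). RGS3, which couples B-type ephrins to G proteins, was at -0.94 and -1.26 at these times. SIPA1L1, a Rap GTPase activating protein, was higher at 48 h (0.77, adjusted p = 0.000102), and WASL, which promotes actin branching, at 72 h (0.44, 0.000668).

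Of 17 tested adaptors and phosphatases, 4 were higher and 3 lower at 48 h, while 4 were higher and 4 lower at 72 h, near the 42.1% and 43.4% of all tested genes called at these times. ANKS1B, an adaptor of a family that binds Eph receptors, stood at 12.4, 12.8 and 12.1 CPM with PRT3789, against 2.39, 2.75 and 1.91 CPM with DMSO at 48 h (log2 fold change 2.40 ± 0.14 SE, edgeR adjusted p = 4.15e-10). INPPL1, the lipid phosphatase SHIP2, which binds EPHA2, was higher at 0.54 and 0.55 at 48 and 72 h. GRB7, an adaptor, was lower at -0.70 and -0.87. Of 8 tested genes, SRC, LYN and 5 other kinases with PXN, 1 was higher and 4 were lower at both times. PXN, the focal adhesion scaffold paxillin, stood at 118, 101 and 114 CPM with PRT3789, against 296, 258 and 235 CPM with DMSO at 48 h (-1.24 ± 0.12, adjusted p = 2.77e-07), and ABL2, a kinase that Eph receptors engage, was higher at 0.86 (0.00115).

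Of 5 tested PDZ proteins, which bind the tails of B-type ephrins and some receptors, 2 were higher and 0 lower at 48 h, GRIP1 at 0.85 (edgeR adjusted p = 2.89e-05) and AFDN at 0.55 (0.000601). At 72 h 3 were higher and 0 lower, with PICK1 at 0.34 (0.00308) added. Of 6 tested proteases that shed or cut Eph receptors and ephrins, 2 were higher and 3 lower at 48 h, while 2 were higher and 1 lower at 72 h. Both lists are short. Over all tested genes, 42.1% were called at 48 h (21.2% higher, 20.9% lower) and 43.4% at 72 h (21.3% higher, 22% lower). MMP2, a secreted gelatinase, stood at 51.2, 45.4 and 45.0 CPM with PRT3789, against 199, 200 and 173 CPM with DMSO at 48 h (-2.01 ± 0.12, adjusted p = 4.58e-10). At 72 h it was at -2.50 (3.23e-11), while at 6 h it averaged 251 ± 29.4 CPM with PRT3789 and 240 ± 33.1 CPM with DMSO. NCSTN, a subunit of the gamma-secretase that cuts within the membrane, was higher by a small amount, 0.34 at 48 h (0.000228).

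**Figure D4:**
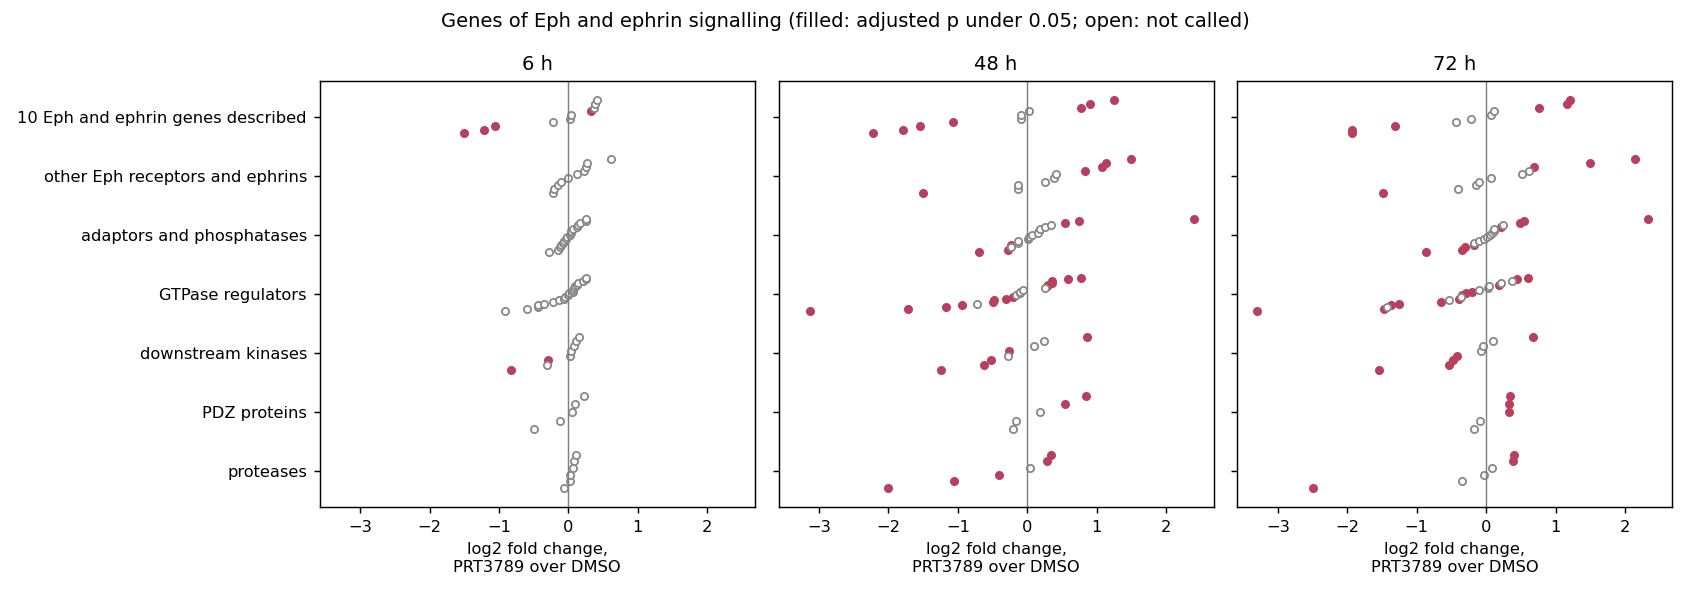
Log2 fold change of PRT3789 over DMSO for each tested gene of the 10 described here, the rest of the family and the signalling lists at 6, 48 and 72 h, with filled points for adjusted p under 0.05 and heights within a row only spreading the points. At 6 h the filled points outside the 10 genes are SRC and LYN, and at 48 and 72 h they lie on both sides of 0.

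Over the 18 libraries, the genes whose log2 CPM followed each transcript most closely were ranked by Pearson's r among 10917 genes with a mean of at least 5 CPM. The libraries fall into 6 groups that share treatment and time, so these values describe a common profile and carry no p. Closest to EPHA2 were MTCL1 (0.987), EHD1 (0.986) and NUAK1 (0.983). Closest to EPHB2 were NIBAN2 (0.987), PTPRU (0.987) and SCARB1 (0.983). SVIL (0.989), IQCE (0.987) and TBKBP1 (0.986) were closest to EPHA1, and SOX4 (0.991), MBOAT7 (0.99) and GATA3 (0.99) to EFNA5. EFNA1 had PIM3 (0.954), ZNF354A (0.95) and TRIM38 (0.949). The highest r was 0.935 for EPHA4 (with TSTD2) and 0.913 for EPHB3 (with N4BP3). For the genes not called between PRT3789 and DMSO at any time, it was 0.971 for EPHB4 (with ARAP1), 0.838 for EFNB2 (with the gene CPM) and 0.714 for EFNB1 (with CTBP1).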

How the data were processed

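Messenger RNA of NCI-H1693 cells was sequenced as stranded, oligo(dT)-selected 150 bp paired libraries, per the labels. Per the labels, the authors trimmed reads with Trim Galore, aligned them with STAR to GRCh38 (NCBI p14, annotation release 110) and estimated gene counts with RSEM within nf-core/rnaseq 3.17.0. The deposited table holds expected counts, already whole numbers, in 18 libraries of 23154484 to 31094797. Without molecular identifiers in the reads, depth bears on counting error only. The labels do not say whether the 3 libraries of a group were separate cultures, so p-values may measure technical spread.

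Genes were filtered with filterByExpr and scaled by TMM, and edgeR 4.0.16 (R 4.3.3) fitted one mean per group over all 18 libraries with robust two-sided quasi-likelihood tests. The comparisons were of PRT3789 with DMSO at 6, 48 and 72 h, of that effect between times, and of DMSO over time, with Benjamini-Hochberg adjustment over 16291 genes. CPM are TMM-scaled, and log2 CPM used a prior count of 2. Levels per length used GENCODE 44 canonical transcripts, and positions and promoters RefSeq on GRCh38.p14. The fit was tested on simulated counts first. Named genes are the 10 Eph receptors and ephrins and, from each list of related genes, the 4 called with the smallest p at each time. The genes, lists and contrasts were chosen with earlier results of these data known. Alternatives were DESeq2 1.42.0, its size factors, limma-voom 3.58.1, total counts, other filters and thresholds, a replicate block, removal of a length trend, each time fitted alone and each library left out, and, added after the data were seen, merged exons as the length. A few genes of the lists are not reported here by name.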

Additional observations from a re-analysis of the deposited data

Results flagged for a closer look

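For 4 transcripts the PRT3789 effect differed between 6 and 48 h in a test of the difference itself (edgeR interaction). The log2 effect of PRT3789 over DMSO was higher at 48 h than at 6 h by 0.58 for EPHA1 (adjusted p = 0.00191) and by 0.88 for EFNA5 (0.0257). It changed by -0.72 for EPHA2 (0.0023) and by -2.01 for EPHB2 (5.35e-06). The 6 h libraries, which enter each of these values, were more spread than the later ones.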

How the results depend on the processing

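Of 17 calls of a transcript at a time, 13 were kept under each of 28 settings. The others were EPHA1, EFNA1 and EPHB3 at 6 h and EPHA4 at 48 h, with values given above. These settings did not include stricter thresholds. EPHA1 at 6 h and EPHA4 at 48 h did not pass an adjusted p under 0.01. With at least 2-fold required, EPHA1 failed at 6 h (1.25-fold), 48 h (1.87-fold) and 72 h (1.7-fold), and EPHA4 at 48 h (1.71-fold). EPHA1 at 6 h was also lost with limma-voom (adjusted p = 0.0531), no filter (0.0678) and the replicate block within each time (0.0819). With 6 h fitted apart, 1 of the 10 genes was called, and 147 genes in all, against 705. Fewer libraries entered each fit of a single time. With 48 h fitted apart, 7665 genes were called, against 6853, and with 72 h fitted apart 9089, against 7069. The cause of the lower number at 6 h was not tested. With a change of at least 2-fold required, the count of changed effects from 6 to 48 h was 1. In DMSO at 48 h against 6 h it was 3 at adjusted p under 0.01, 0 at 2-fold, 3 with the replicate block within each time (EFNA5, adjusted p = 0.0658, and EPHB4, 0.19, were lost), and 3 to 6 on leaving out single libraries (EFNB2 was added without DMSO 6 h replicate 1, adjusted p = 0.031). In DMSO at 72 h against 48 h it was 1 with DESeq2, limma-voom, no filter or the replicate block over all groups, 2 with the length trend removed, and 0 to 1 on leaving out single libraries. EPHB4 at 72 h was called with the replicate block within each time (-0.22, adjusted p = 0.046). EFNA5 in the change from 6 to 48 h was lost with no filter (adjusted p = 0.0798).

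The main fit did not pair libraries by replicate number. For the 9 library pairs with a common number and time, deviations from group means correlated from -0.237 to 0.338 across genes. In all, 3 PRT3789 libraries were closest to the DMSO library of their own number. These were replicates 1 (0.13) and 3 (0.338) at 6 h and replicate 1 at 48 h (0.0659). With 3 libraries in a group, such values cannot exclude pairing. Scaling by total counts moved the 6 h calls over all genes to 293 higher and 368 lower, against 209 and 496, and those of DMSO at 48 h against 6 h to 3793 and 2090, against 2781 and 3278, with a median shift of 0.108.

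Sign changed for 16 of 70 results, none of them called. In DMSO at 48 h against 6 h, EFNA1 was 0.14 with the length trend removed, 0.19 with the block within each time and 0.073 with total counts, and -0.22 to 0.12 without single libraries; EFNB1 was -0.11 to 0.39, EPHB3 -0.15 to 0.35 and EPHA4 0.04 to 0.37 (-0.24 with the block). In DMSO at 72 h against 48 h, with the block, EFNA5 was -0.011, EPHA4 0.42 and EPHB3 -0.011; without single libraries EPHA4 was -0.26 to 0.068, EFNB1 -0.21 to 0.30 and EPHB2 -0.10 to 0.06. For PRT3789 against DMSO without single libraries, EFNB1 was -0.27 to 0.23 at 48 h (-0.0050 with the length trend removed) and -0.12 to 0.26 at 72 h, and at 6 h EFNB2 was -0.038 to 0.23, EPHB2 -0.33 to 0.017 and EPHB4 -0.085 to 0.14. In the change from 48 to 72 h, EFNA5 was 0.063 with the length trend removed and -0.29 to 0.11 without single libraries, and EFNB1 was -0.050 with limma-voom, -0.0094 with the block and -0.17 to 0.34 without single libraries. The cause was not tested. With merged exons as the length, 33 of 60 shares of the 10 genes moved by more than 1 SD. Low counts in DMSO limit EPHA3 (2 to 15 per library), EPHA6 (0 to 12) and EPHA1-AS1 (3 to 18).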
